A study of Mus musculus with 3 samples.

Results

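The collagen genes were examined across the cell classes of mouse lung. They are the 44 genes of the deposited gene list whose symbol is Col, a number, the letter a and a number, out of 27998 genes listed in each library. A collagen is built of 3 protein chains, each with glycine at a fixed repeat along the chain, wound into a triple helix. Fibril-forming collagens (types I, II, III, V and XI among them) make the ropes that bear load in the lung wall, and type IV makes the sheet of the basement membrane under epithelium and endothelium. Type VI forms beaded filaments around cells, fibril-associated collagens sit on the surface of fibrils, multiplexins lie beside basement membranes, and a few collagens are anchored in the cell membrane.

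The cells came from lungs of MMTV-HER2/Neu mice on the FvB background, in which a mammary tumour virus promoter drives the HER2/Neu oncogene, so that tumours arise in the mammary gland. Dissociated lung cells were sorted and profiled with Chromium 3′ version 3 chemistry, which counts unique molecular identifiers (UMIs) near the 3′ end of transcripts. The late HER2-positive library held CD45-, HER2+ cells from mice older than 20 weeks with primary tumours. The early HER2-positive library held CD45-, HER2+ cells, and the HER2-negative library CD45-, HER2- cells, both from mice of 14 to 18 weeks with no palpable tumour. The labels call the HER2-positive sorts cancer cells and the HER2-negative sort non-cancer lung cells. Each group was 1 library, and the number of mice behind each is not given in the sources used here. Stage, age, sort, animal and library therefore cannot be told apart, no test between groups was possible, and every interval below is at the 95% level and covers counting error only.

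Barcodes with at least 1000 UMIs and under 25% mitochondrial UMIs were kept, which left 6012 late HER2-positive, 7622 early HER2-positive and 6416 HER2-negative cells. Their median UMI counts were 8075, 5318.5 and 3166, and 10 to 18 barcodes were shared by each pair of libraries. Each cell was put in the first class it matched. The classes were mammary (milk protein genes Csn3 and Wfdc18, at least 1% of UMIs), alveolar type 2 (surfactant gene Sftpc, at least 10%), alveolar type 1 (Ager and Rtkn2, at least 4 UMIs) and endothelial (Cldn5 and Cdh5, at least 2). The others were smooth muscle (Myh11 and Cnn1, at least 3), pericyte (Higd1b and Cox4i2, at least 2) and fibroblast (Pdgfra and Dcn, at least 2). Cells with the mammary markers numbered 161 in the late HER2-positive library and 0 in the other libraries. Most HER2-positive cells matched alveolar type 2 (3996 late and 3939 early, against 46 HER2-negative), and most HER2-negative cells matched endothelium (479, 1519 and 5179 in late HER2-positive, early HER2-positive and HER2-negative libraries). Collagen-rich classes were small: the same libraries held 74, 222 and 658 fibroblasts, 626, 755 and 147 pericytes, and 297, 547 and 60 smooth muscle cells. Alveolar type 1 cells numbered 108, 238 and 49. Of the alveolar type 2 cells, 3437 late HER2-positive, 3127 early HER2-positive and 40 HER2-negative cells also matched a later class. For 3422, 3057 and 36 cells this was alveolar type 1. Levels are CPM, the UMIs of a gene scaled to a common total of all UMIs in the class. A level of a class mixes how many of its cells make a transcript with how much each makes.

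The sequence that makes a gene a collagen gene is the repeat of glycine codons (GGN, where N is any base), shown here in capitals over 90 bases of the coding sequence of 3 members, from GENCODE transcripts of build GRCm38. Col1a2 encodes a chain of type I, the main fibril collagen, Col4a1 a chain of type IV, and Col9a1 a chain of type IX, which coats cartilage fibrils.
Col1a2 (chromosome 6), codons 97 to 126: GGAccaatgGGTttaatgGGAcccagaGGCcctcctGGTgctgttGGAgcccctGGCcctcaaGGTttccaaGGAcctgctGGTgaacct
Col4a1 (chromosome 8), codons 148 to 177: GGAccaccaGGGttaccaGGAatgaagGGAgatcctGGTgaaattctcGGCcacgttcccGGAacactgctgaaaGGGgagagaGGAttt
Col9a1 (chromosome 1), codons 418 to 447: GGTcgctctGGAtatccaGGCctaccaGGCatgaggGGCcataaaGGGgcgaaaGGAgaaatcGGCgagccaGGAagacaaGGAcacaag
The Col1a2 and Col9a1 stretches keep GGN at the first codon of each triplet, while the Col4a1 stretch breaks the frame of the repeat. Over the whole reading frame, the longest unbroken run in the 11 fibril-forming genes was 216 to 344 triplets with a median of 338. It was 39 to 66 triplets in the 6 type IV genes, 37 to 87 in the 6 type VI genes, 32 to 113 in the 9 fibril-associated genes and 30 in both multiplexin genes.

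The pairing of type IV chains can be seen in their promoters. Col4a1 and Col4a2, whose products join in 1 molecule, start 21 bases apart on opposite strands, so that their windows of 250 bases before and 50 bases after the start overlap. The 78 shared bases are in capitals, read from opposite strands. Col4a5 and Col4a6, another head-to-head pair, start 1343 bases apart, and their capitals mark CCAAT and GGGCGG motifs on either strand. Windows are RefSeq's on GRCm38.p6, 5′ to 3′ along the gene.
Col4a1, chr8:11312777-11313076, minus strand: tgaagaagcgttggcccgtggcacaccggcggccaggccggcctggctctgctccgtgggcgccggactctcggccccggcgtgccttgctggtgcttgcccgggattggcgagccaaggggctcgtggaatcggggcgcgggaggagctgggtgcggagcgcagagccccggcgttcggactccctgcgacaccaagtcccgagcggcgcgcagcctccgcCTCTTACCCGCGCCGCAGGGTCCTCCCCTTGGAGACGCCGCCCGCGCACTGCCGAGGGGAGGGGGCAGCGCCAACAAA
Col4a2, chr8:11312555-11312854, plus strand: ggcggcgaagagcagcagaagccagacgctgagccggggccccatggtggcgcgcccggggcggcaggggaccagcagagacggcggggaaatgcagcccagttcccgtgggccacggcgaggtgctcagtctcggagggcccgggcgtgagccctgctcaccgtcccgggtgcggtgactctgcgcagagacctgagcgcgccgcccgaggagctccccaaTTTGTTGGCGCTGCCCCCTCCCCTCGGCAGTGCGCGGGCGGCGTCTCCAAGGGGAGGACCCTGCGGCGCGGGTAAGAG
Col4a5, chrX:141475169-141475468, plus strand: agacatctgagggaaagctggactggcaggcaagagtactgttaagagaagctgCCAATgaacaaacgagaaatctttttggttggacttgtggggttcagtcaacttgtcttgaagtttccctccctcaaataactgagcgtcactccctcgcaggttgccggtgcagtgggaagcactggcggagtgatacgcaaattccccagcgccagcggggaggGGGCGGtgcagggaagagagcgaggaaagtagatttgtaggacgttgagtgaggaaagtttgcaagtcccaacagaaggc
Col4a6, chrX:141474027-141474326, minus strand: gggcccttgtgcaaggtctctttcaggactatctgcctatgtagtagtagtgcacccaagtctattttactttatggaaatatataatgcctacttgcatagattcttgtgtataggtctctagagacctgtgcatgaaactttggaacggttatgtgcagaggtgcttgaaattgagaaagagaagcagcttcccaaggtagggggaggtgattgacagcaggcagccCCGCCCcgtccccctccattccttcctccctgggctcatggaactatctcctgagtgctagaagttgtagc
The Col4a1 and Col4a2 windows were 74.0% and 73.7% G and C, against a median of 52.7% over all 32851 windows, and the Col4a5 and Col4a6 windows were 52.7% and 48.3%. RefSeq windows were found for 35 of the 44 genes, 38 windows in all. Those not matched were Col12a1, Col14a1, Col1a1, Col22a1, Col26a1, Col2a1, Col4a3, Col5a2 and Col9a3. The GGGCGG motif, on either strand, was in 23 of the 38 windows (60.5%), against 35.7% of all windows. The CCAAT motif was in 13 (34.2%, against 37.4% of all windows) and TATAAA in 5 (13.2%, against 13.6%), so these last motifs were about as frequent in collagen windows as in others. No motif contains another, although CCAAT and GGGCGG can share end bases, and a match is a description of the window, not of binding.

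Collagen transcripts were concentrated in the stromal classes of all 3 libraries. Fibroblasts held 8049, 9814 and 6972 CPM of collagen in late HER2-positive, early HER2-positive and HER2-negative libraries, pericytes 6436, 6423 and 6545 CPM, and smooth muscle cells 5568, 4686 and 5773 CPM. Alveolar type 1 cells held 1783, 3097 and 3893 CPM, endothelial cells 998, 1282 and 1422 CPM, and alveolar type 2 cells 390, 573 and 475 CPM. Mammary cells held 1591 CPM. The fibroblast class was highest in each library, and the pericyte level differed least between libraries. Barcodes of 1 to 100 UMIs, taken as free RNA, held 868, 1157 and 1770 CPM of collagen, above the alveolar type 2 level in each library. The endothelial level was also below it in the HER2-negative library, so low collagen values of these classes can hold free RNA.

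The kinds of collagen differed more between classes than between libraries. Fibril-forming chains made up 64.5%, 66.2% and 56.6% of collagen UMIs in fibroblasts of late HER2-positive, early HER2-positive and HER2-negative libraries. Type IV chains made up 58.0%, 54.2% and 61.9% in pericytes, 82.6%, 79.0% and 86.3% in endothelial cells, and 82.4%, 68.3% and 86.1% in alveolar type 1 cells. Smooth muscle cells carried both, with 39.3%, 42.2% and 47.1% fibril-forming and 33.1%, 25.7% and 25.4% type IV. Of these smooth muscle cells, 156 of 297, 211 of 547 and 21 of 60 also matched the pericyte markers, and their part in this mix was not tested. Mammary cells stood apart, with 72.1% of their collagen UMIs on fibril-associated chains, 21.0% on fibril-forming chains and 6.0% on type IV chains.

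Of the 44 genes, 33 reached 20 CPM in a class of at least 50 cells in some library. Leaving out the mammary class, which only 1 library holds, 22 of these 33 had the same highest class in all 3 libraries: 12 in fibroblasts, 6 in pericytes, 3 in alveolar type 1 cells and 1 in smooth muscle cells. Between the 2 HER2-positive libraries, 30 of the 33 did. The 11 genes below 20 CPM were Col6a4, Col6a6, Col8a2, Col10a1, Col19a1, Col20a1, Col22a1, Col24a1, Col25a1, Col26a1 and Col28a1. Each of the 44 had at least 1 UMI in the kept cells.

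**Figure D1:**
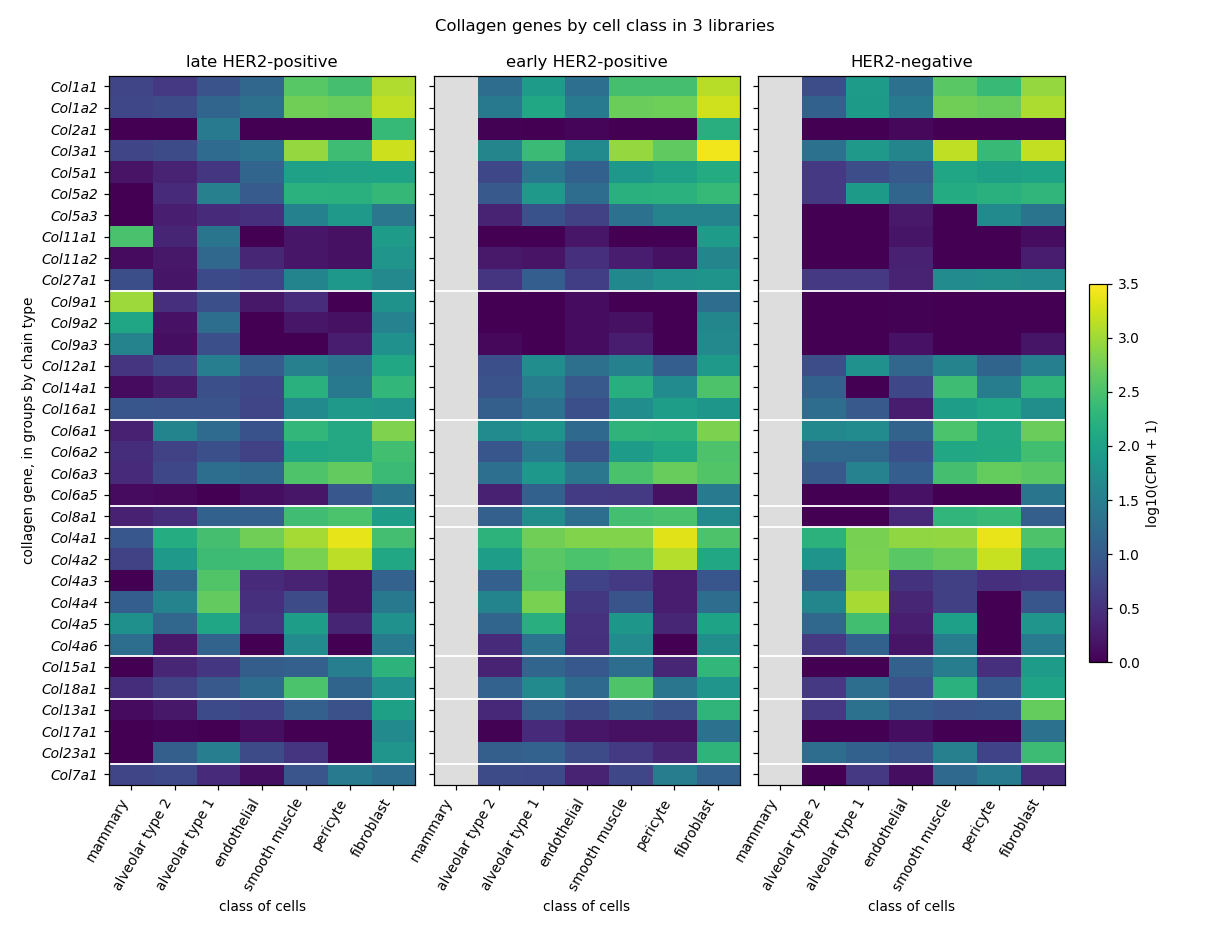
Levels of the 33 collagen genes at or above 20 CPM (rows, in groups by chain type) in each class of cells (columns), one panel per library from late HER2-positive to HER2-negative; colour is log10(CPM + 1), and grey marks a class with no cells. Fibril-forming and type VI chains fill the fibroblast, pericyte and smooth muscle columns of each panel, Col4a3 and Col4a4 mark the alveolar type 1 column, and Col9a1 with Col11a1 marks the mammary column.

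Type I and type III chains are the bulk of lung fibrils. In fibroblasts, Col1a1 (chr11:94936224-94953042) was at 1227, 1316 and 877 CPM and Col1a2 (chr6:4504814-4541544) at 1468, 1786 and 1176 CPM in late HER2-positive, early HER2-positive and HER2-negative libraries. Col3a1 (chr1:45311538-45349706), the only chain of type III, was at 1737, 2647 and 1518 CPM. Each of these 3 genes was higher in both HER2-positive libraries than in HER2-negative fibroblasts. In the late library 1 cell of 74 held 28.3% of the fibroblast Col3a1 UMIs and 35.7% of the Col1a1 UMIs. The late part of that order therefore leaned on 1 cell for Col3a1 and for Col1a1. In pericytes, Col1a1 was at 289, 295 and 238 CPM and Col1a2 at 489, 528 and 489 CPM. In smooth muscle cells Col3a1 was at 893, 891 and 1475 CPM. The balance of the chains depended on the class: the UMI ratio of Col3a1 to Col1a2 was 0.53, 0.84 and 0.47 in pericytes, 1.18, 1.48 and 1.29 in fibroblasts, and 1.61, 1.81 and 2.70 in smooth muscle cells. Intervals of the pericyte ratio lay below those of fibroblasts and smooth muscle cells in every library.

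Type V chains are laid into type I fibrils and limit their width. Col5a1 was at 107, 140 and 106 CPM and Col5a2 at 214, 223 and 197 CPM in fibroblasts of late HER2-positive, early HER2-positive and HER2-negative libraries. In pericytes the same genes were at 103, 101 and 96.2 CPM and at 168, 171 and 168 CPM. Type V genes were thus closer between pericytes and fibroblasts than type I genes were. Col5a3, a less common type V chain, was at 76.5, 35.7 and 45.1 CPM in pericytes. Col27a1, a fibril collagen best known from cartilage, was at 71.4, 58.1 and 53.2 CPM in pericytes and at 42.8, 64.3 and 47.7 CPM in fibroblasts.

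Type VI chains form a filament net around cells, from the products of Col6a1, Col6a2 and a longer chain such as that of Col6a3. Col6a1 was at 658, 636 and 501 CPM and Col6a2 at 273, 331 and 277 CPM in fibroblasts of late HER2-positive, early HER2-positive and HER2-negative libraries. In pericytes they were at 128, 181 and 127 CPM and at 129, 114 and 133 CPM. Col6a3 went the other way, with 449, 478 and 467 CPM in pericytes beside 239, 349 and 400 CPM in fibroblasts. The UMI ratio of Col6a3 to Col6a1 was 3.5, 2.64 and 3.68 in pericytes, 1.64, 1.64 and 0.92 in smooth muscle cells, and 0.36, 0.55 and 0.80 in fibroblasts. Intervals of the pericyte and fibroblast ratios did not overlap in any library. Col6a5, which encodes another long chain, was at 21.4, 27.6 and 21.9 CPM in fibroblasts. Col8a1, of the short-chain type VIII network around vessels, was at 318, 311 and 235 CPM in pericytes and at 266, 284 and 203 CPM in smooth muscle cells.

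Type IV chains split by class. Col4a1 and Col4a2, the pair found in most basement membranes, were highest in pericytes. Col4a1 was at 2311, 2178 and 2443 CPM in pericytes of late HER2-positive, early HER2-positive and HER2-negative libraries, at 1082, 692 and 852 CPM in smooth muscle cells, and at 556, 686 and 824 CPM in endothelial cells. Col4a2 was at 1417, 1302 and 1605 CPM in pericytes, 618, 383 and 486 CPM in smooth muscle cells, and 262, 317 and 398 CPM in endothelial cells. After each cell was thinned to 1000 UMIs, 84.8%, 84.1% and 87.8% of pericytes kept a Col4a1 UMI, against 12.5%, 14.3% and 13% of alveolar type 2 cells. Before thinning the pericyte share was 99.4%, 96.8% and 95.9%, at median depths of 3659, 2812 and 3278 UMIs beside 8837, 7138 and 8232.5 in alveolar type 2 cells. The UMI ratio of Col4a1 to Col4a2 was 1.63, 1.67 and 1.52 in pericytes, 2.13, 2.16 and 2.07 in endothelial cells, and 1.17, 1.39 and 0.96 in alveolar type 1 cells. Endothelial intervals lay above the pericyte intervals, and alveolar type 1 intervals below them, in each library.

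Col4a3, Col4a4 and Col4a5 encode the chains of the second type IV network, known from the kidney filter and the alveolar wall. Col4a3 (chr1:82586921-82722059) and Col4a4 (chr1:82448423-82586849) lie head to head. Col4a4 was at 448, 624 and 1104 CPM in alveolar type 1 cells of late HER2-positive, early HER2-positive and HER2-negative libraries, and Col4a3 at 353, 367 and 724 CPM. Col4a5 was at 112, 154 and 271 CPM in the same cells. Club cell genes summed to 203594 CPM in the late class, and without club-marked cells Col4a4 was at 723 CPM in late and 654 CPM in early HER2-positive cells and Col4a3 at 571 CPM, against 386 CPM. Alveolar type 2 cells had the next highest Col4a4, at 35.9, 36.4 and 39.3 CPM, so the gene was more than 10 times as high in type 1 cells of each library. Col4a6, which pairs with Col4a5 in smooth muscle basement membrane, was at 48.3, 48.4 and 29.0 CPM in smooth muscle cells and at 12.1, 20.5 and 11.4 CPM in alveolar type 1 cells. The UMI ratio of Col4a5 to Col4a6 was 9.29, 7.51 and 23.8 in alveolar type 1 cells, against 1.82 and 1.45 in late and early HER2-positive smooth muscle cells. The HER2-negative alveolar type 1 class held 49 cells, and its levels are given as a description. Its ratio of 23.8 came from 95 and 4 UMIs (interval 8.98 to 89.0).

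**Figure D2:**
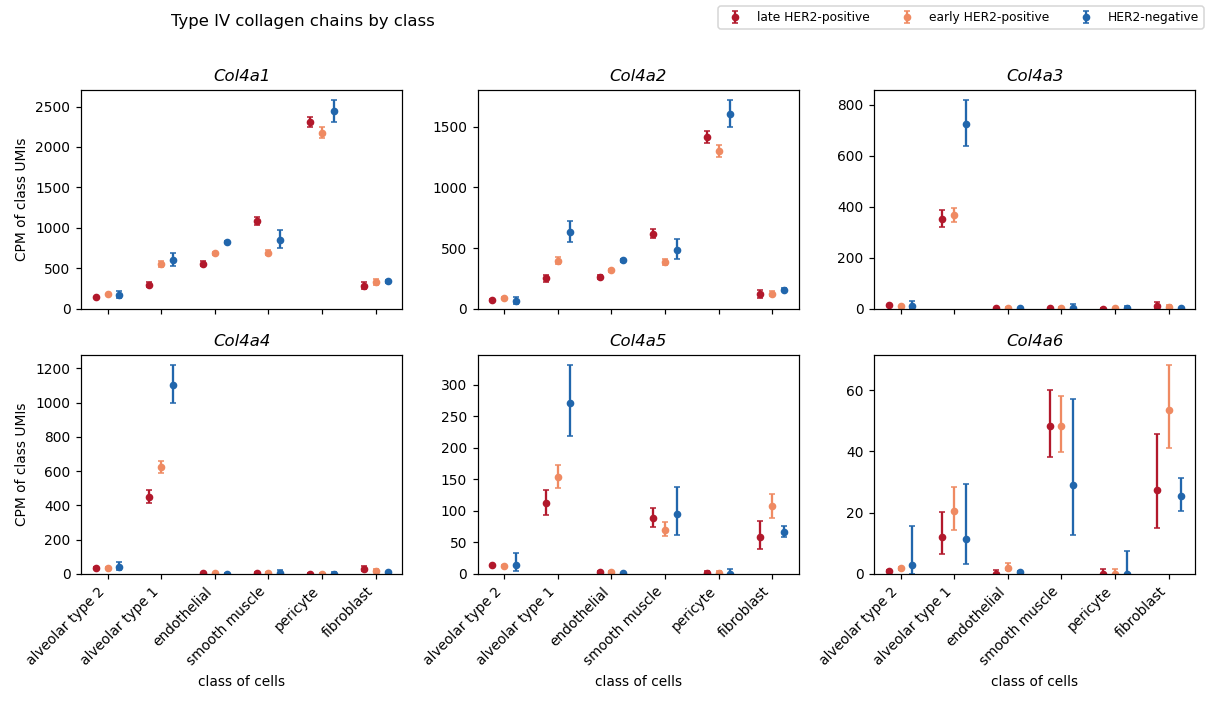
CPM of the 6 type IV genes (panels) by class of cells, with 1 point per library from late HER2-positive to HER2-negative and bars for the 95% Poisson interval. Col4a1 and Col4a2 peak in pericytes, at 2178 to 2443 and 1302 to 1605 CPM, and Col4a3 and Col4a4 in alveolar type 1 cells, at 353 to 724 and 448 to 1104 CPM.

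Endothelial cells, split by non-collagen markers in the way described for fibroblasts below, differed in type IV level. Cells marked by Vwf, a gene of larger vessels (180, 309 and 544 cells in late HER2-positive, early HER2-positive and HER2-negative libraries), had 357, 340 and 427 CPM of Col4a1. Those marked by Gpihbp1 and Plvap, capillary genes (262, 998 and 4172 cells), had 721, 815 and 893 CPM, and those marked by Car4 and Ednrb, genes of the capillary cells that face alveoli (32, 190 and 445 cells), had 782, 697 and 787 CPM. Both capillary subsets were above the Vwf subset in each library. Col12a1, a fibril-associated collagen, was at 63.6, 66.0 and 58.1 CPM in the Car4 and Ednrb subset, at 6.98, 12.1 and 8.42 CPM in the Gpihbp1 and Plvap subset, and at 3.15, 6.34 and 3.29 CPM in the Vwf subset. Between the capillary subsets alone, Col15a1, a multiplexin, had the opposite order. It was at 4.89, 2.24 and 0.524 CPM in the Car4 and Ednrb subset, levels that rest on few UMIs. In the Gpihbp1 and Plvap subset it was at 15.4, 10.3 and 13 CPM.

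Col18a1, the multiplexin whose end fragment is endostatin, was the 1 gene with smooth muscle as its highest class in all libraries. It was at 320, 338 and 170 CPM in smooth muscle cells of late HER2-positive, early HER2-positive and HER2-negative libraries, and at 12.3, 22.4 and 8.19 CPM in pericytes. Pericyte over smooth muscle ratios were 0.038 (0.025 to 0.056), 0.066 (0.049 to 0.089) and 0.048 (0.013 to 0.132). By contrast, Col4a1 was 2.14-fold, 3.15-fold and 2.87-fold higher in pericytes. The smooth muscle class of these ratios includes the cells, counted above, that also matched pericyte. After thinning, 21.6%, 24.7% and 16.7% of smooth muscle cells kept a Col18a1 UMI, against 0.48%, 2.65% and 1.36% of pericytes. Col14a1, a fibril-associated collagen of type I fibrils, also divided the 2 mural classes, at 25.3, 48.0 and 28.7 CPM in pericytes and 168, 162 and 257 CPM in smooth muscle cells. Pericytes were the highest class for Col16a1, another fibril-associated gene, at 76.5, 91.1 and 113 CPM, and for Col7a1, of anchoring fibrils, at 27.0, 28.4 and 26.6 CPM. Col25a1, a transmembrane collagen, was at 9.29, 7.78 and 8.19 CPM in pericytes.

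Fibroblasts were split by Npnt and Ces1d, genes of alveolar fibroblasts (38, 88 and 488 cells in late HER2-positive, early HER2-positive and HER2-negative libraries), by Pi16 and Serpinf1, genes of adventitial fibroblasts (22, 49 and 83 cells), and by Hhip and Aspn (9, 76 and 81 cells). A cell with at least 2 UMIs of Hhip and Aspn went to that subset, and any other to the marker list with more UMIs, which also held Slc7a10 and Fgfr4 beside Npnt, and Ccl11 and Clec3b beside Pi16. The marker lists took their present form after values of the subsets were seen, and no level is given for the 9 late HER2-positive cells. Most of the 38 late HER2-positive Npnt and Ces1d cells lay outside the Vim-positive, Epcam-negative set described below. Col13a1, a transmembrane collagen, was at 156, 427 and 610 CPM in the Npnt and Ces1d subset and at 43.1, 47.5 and 33.0 CPM in the Pi16 and Serpinf1 subset. In the Hhip and Aspn subset it was at 48.9 CPM in early HER2-positive and 61.1 CPM in HER2-negative cells. Col14a1 had the opposite order, with 8.21, 37.6 and 12.5 CPM in the Npnt and Ces1d subset and 401, 551 and 714 CPM in the Pi16 and Serpinf1 subset, beside 541 and 646 CPM in early HER2-positive and HER2-negative cells of the Hhip and Aspn subset. The Npnt and Ces1d subset was thus the highest for Col13a1 and the lowest for Col14a1 among the subsets with a level in each library. Col15a1 was at 407, 377 and 388 CPM in the Pi16 and Serpinf1 subset and at 0, 11.1 and 4.44 CPM in the Npnt and Ces1d subset, with 314 and 233 CPM in early HER2-positive and HER2-negative cells of the Hhip and Aspn subset. Col6a6, a type VI chain, was at 43.1, 22.2 and 74.9 CPM in the Pi16 and Serpinf1 subset and at 0, 0 and 3.23 CPM in the Npnt and Ces1d subset.

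Cell by cell and at full depth, the separation of Col13a1 and Col14a1 showed in the early libraries but not in the late HER2-positive library. Col13a1 and Col14a1 were both detected in 8 of 74 late HER2-positive, 21 of 222 early HER2-positive and 30 of 658 HER2-negative fibroblasts, which is 10.8%, 9.46% and 4.56%. The product of the 2 single shares would be 8.82%, 15.6% and 15.6%. Col14a1 and Col15a1 were both detected in 9, 48 and 76 of those cells, or 12.2%, 21.6% and 11.6%, beside products of 5.46%, 11.8% and 3.08%. In the early libraries Col13a1 and Col14a1 shared fewer cells than that product, and Col14a1 and Col15a1 shared more in all 3. After thinning to 1000 UMIs per cell, Col13a1 and Col14a1 shared 1, 1 and 3 cells (1.35%, 0.45% and 0.456%), beside products of 2.01%, 3.48% and 3.56%. Col14a1 and Col15a1 then shared 2, 7 and 12 cells (2.70%, 3.15% and 1.82%), beside products of 1.81%, 1.96% and 0.495%. Of the other transmembrane genes, Col23a1 was at 66.2, 190 and 250 CPM in all fibroblasts and Col17a1, of hemidesmosomes, at 46.7, 19.2 and 19.8 CPM. In Vim-positive, Epcam-negative fibroblasts Col17a1 was at 10.3, 5.13 and 20.1 CPM, from 3, 5 and 63 UMIs. The HER2-negative level was then the highest, and the late and early UMIs were too few to order those libraries.

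**Figure D3:**
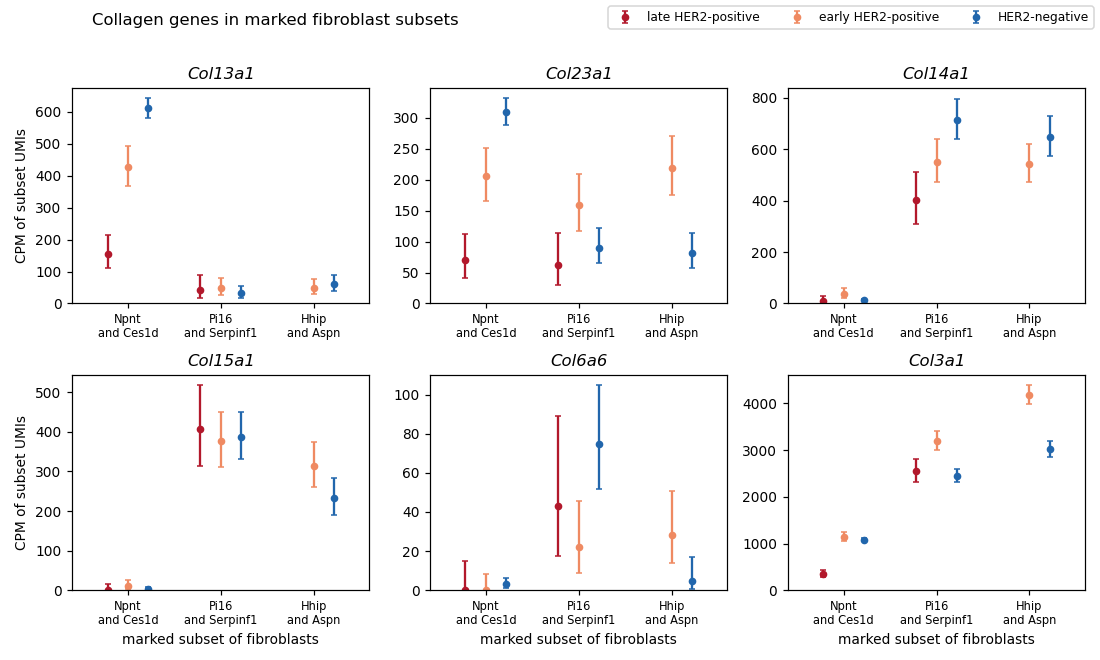
CPM of 6 collagen genes (panels) in the 3 marked fibroblast subsets, with 1 point per library from late HER2-positive to HER2-negative and bars for the 95% Poisson interval. The Hhip and Aspn subset has no late HER2-positive point, since it held 9 cells. Col13a1 is highest in the Npnt and Ces1d subset (156 to 610 CPM), where Col14a1 (8.21 to 37.6 CPM) and Col15a1 (0 to 11.1 CPM) are lowest.

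Mammary cells of the late HER2-positive library expressed collagens that are best known from cartilage. Col9a1 (chr1:24177610-24252684), whose repeat is shown above, was at 984 CPM in the 161 mammary cells and at 2.08 CPM in the 3996 alveolar type 2 cells of the same library, a ratio of 474 (378 to 603). It was detected in 155 of the 161 mammary cells, and the median mammary cell had 941 CPM. After thinning to 1000 UMIs, 55.9% of mammary cells kept a Col9a1 UMI, against 0.05% of alveolar type 2 cells. The median depths were 22179 and 8837 UMIs. Under the alternatives run the ratio ranged from 351 to 2639, the highest with class thresholds doubled. Free RNA of this library had 56.9 CPM of Col9a1, which is above the alveolar type 2 level. The mammary value was high across the class and did not rest on a few cells: the cell with the most UMIs held 4.01% of the 3640.

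The partners of Col9a1 followed it. Col11a1, a chain of type XI, which forms the core of cartilage fibrils, was at 314 CPM in mammary cells and 1.34 CPM in alveolar type 2 cells, a ratio of 234 (176 to 318), and was detected in 126 of 161 mammary cells. Col9a2 was at 116 and 0.465 CPM and Col9a3 at 35.4 and 0.355 CPM in mammary and alveolar type 2 cells, ratios of 250 (154 to 433) and 99.7 (56.3 to 192). These 3 chains of type IX were all present, while Col2a1, the type II chain of cartilage fibrils, and the cartilage genes Acan and Matn1 had 0 UMIs in mammary cells. Another 17 late HER2-positive cells, in no class but with at least 20 UMIs of other mammary genes (Csn1s1, Csn1s2a, Lalba, Gata3 and Trps1), had 885 CPM of Col9a1, 425 CPM of Col11a1, 212 CPM of Col9a2 and 68.8 CPM of Col9a3.

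Mammary cells also differed from alveolar type 2 cells in type IV chains. Col4a1 was at 7.84 CPM in mammary cells, against 146 CPM in alveolar type 2 cells (ratio 0.054, 0.036 to 0.077), and Col4a2 at 3.79 CPM, against 75.5 CPM. Col4a5 was at 56.2 CPM, against 13.3 CPM (ratio 4.23, 3.58 to 4.99), and Col4a6 at 17.6 CPM, against 0.738 CPM (ratio 23.8, 15 to 38.8). Mammary cells were thus low in the common type IV pair and high in the Col4a5 and Col4a6 pair. Col6a1 was at 1.08 CPM, against 36.9 CPM (ratio 0.029). Col4a3 and Col23a1 had 0 UMIs in mammary cells and 13.2 and 10.5 CPM in alveolar type 2 cells, at least 16.3-fold and 13-fold lower by the limit of 3 counts per class. Of 32 collagen genes with at least 10 UMIs over both classes, 10 were at least 1.5-fold higher in mammary cells, beside 45.2% of all genes measured, and 18 were at least 1.5-fold lower, beside 24.0% of all genes.

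**Figure D4:**
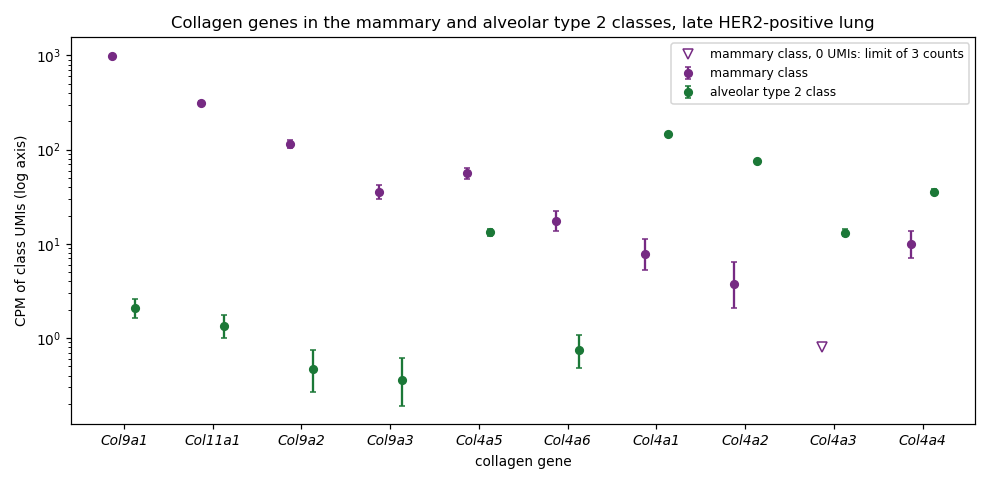
CPM of collagen genes in mammary cells and in alveolar type 2 cells of the late HER2-positive library, on a log axis with 95% Poisson intervals and an open triangle at the limit of 3 counts where a gene had 0 UMIs. Col9a1, Col11a1, Col9a2 and Col9a3 are 99.7-fold to 474-fold higher in the mammary class, while Col4a1 and Col4a2 are lower.

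A second source of cartilage collagens was a handful of cells with at least 2 UMIs of Acan and Matn1, of which the late HER2-positive library held 6, the early HER2-positive library 8 and the HER2-negative library 0. By the class rule, 5 late and 6 early of these counted as fibroblasts and 1 late as alveolar type 1. They held 100% of late and 99.5% of early Col2a1 UMIs, at 3432 and 3583 CPM. They also held 59.5% of late and 61.4% of early Col11a2, and 84.6% of early Col9a1, 92.5% of early Col9a2 and 89.6% of early Col11a1. Outside the mammary class, the fibroblast levels of Col2a1 (218, 157 and 0 CPM), Col11a1 (85.7, 84.3 and 0.296 CPM), Col9a3 (58.4, 43.4 and 0.592 CPM), Col9a2 (35.0, 39.2 and 0 CPM) and Col11a2 (66.2, 37.6 and 0.888 CPM) in late HER2-positive, early HER2-positive and HER2-negative libraries moved with these cells. With them left out, Col2a1, Col9a1, Col9a2, Col9a3 and Col11a2 had 0 UMIs in late and in early HER2-positive fibroblasts.

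The late and early HER2-positive libraries were compared within each class, and stage, age, animal and library cannot be told apart in this comparison. A gene was measured with at least 10 UMIs over both libraries and called at a ratio of at least 1.5 in either direction. In pericytes, 4 of 22 collagen genes measured were higher in the late HER2-positive library, beside 7.21% of all genes, and 3 were lower, beside 10.4%. The median log2 ratio was 0.00 for collagens and -0.03 for all genes. In smooth muscle cells, 4 of 26 were higher and 2 lower, beside 8.57% and 12.1% of all genes, with medians of 0.03 and -0.03. In these mural classes most collagen genes therefore differed by less than 1.5-fold.

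Of the pericyte genes, Col5a3 was at 76.5 CPM in late and 35.7 CPM in early HER2-positive cells, a ratio of 2.14 (1.63 to 2.83). Col3a1 was at 261 CPM, against 444 CPM (ratio 0.59, 0.53 to 0.65). Col12a1 was at 20.3 CPM, against 10.1 CPM (ratio 2.01). Col15a1 was at 30.8 CPM, against 1.37 CPM, but 71 of its 73 late UMIs lay in 3 cells, and the other 623 late pericytes had 0.854 CPM. Col6a5 was at 8.03 CPM, against 0.458 CPM, with 52.6% of its 19 late UMIs in 1 cell. In smooth muscle cells, Col4a1 was at 1082 CPM in late and 692 CPM in early HER2-positive cells (ratio 1.56, 1.46 to 1.67) and Col4a2 at 618 CPM, against 383 CPM (ratio 1.61, 1.48 to 1.77). Of these smooth muscle cells, 162 of 297 late and 221 of 547 early also matched another class, 156 and 211 of them pericytes. Among cells that matched smooth muscle alone the ratios were 1.12 and 1.07.

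In fibroblasts, 8 of 35 collagen genes measured were higher in the late HER2-positive library, beside 14.4% of all genes, and 8 were lower, beside 21.5%. The medians were -0.16 for collagens and -0.08 for all genes. Col23a1 was at 66.2 CPM in late and 190 CPM in early HER2-positive fibroblasts (ratio 0.35, 0.24 to 0.50), and Col13a1 at 95.4 CPM, against 193 CPM (ratio 0.49, 0.36 to 0.68). Col14a1 was at 204 CPM, against 336 CPM (ratio 0.61), Col3a1 at 1737 CPM, against 2647 CPM (ratio 0.66), Col4a5 at 58.4 CPM, against 107 CPM (ratio 0.55), and Col4a6 at 27.3 CPM, against 53.4 CPM (ratio 0.51). The higher genes included Col12a1, at 123 CPM, against 75.1 CPM (ratio 1.63, 1.16 to 2.28), and Col8a1, at 89.6 CPM, against 44.2 CPM (ratio 2.02, 1.33 to 3.06). Of the 46 late Col8a1 UMIs 63.0% lay in 1 cell, and without the top cell of each library the ratio was 0.98. Col9a1 (62.3 CPM, against 16.7 CPM) and Col11a2 (66.2 CPM, against 37.6 CPM) lay in the cartilage-marked cells.

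Part of the late fibroblast class lacked a mesenchymal gene or carried an epithelial one: 22 of its 74 cells had no UMI of Vim, a gene of mesenchymal cells, and 20 had Epcam, an epithelial gene, against 26 and 18 of 222 early cells and 57 and 3 of 658 HER2-negative cells. Club cell genes (Scgb1a1, Scgb3a2 and Cyp2f2) summed to 2650, 841 and 4 CPM in late HER2-positive, early HER2-positive and HER2-negative fibroblasts. With Vim-positive, Epcam-negative cells without cartilage markers (44, 187 and 598 cells), 5 of 27 collagen genes measured were higher in late cells, beside 14.4% of all genes, and 3 were lower, beside 20.2%. In this set the late over early ratio was 0.96 for Col3a1, 0.90 for Col14a1, 0.70 for Col13a1 and 0.46 for Col23a1, of which Col23a1 alone stayed past 1.5-fold. Col1a1 was at 2144 CPM in late and 1541 CPM in early HER2-positive cells of this set, against 1227 and 1316 CPM in the whole class, but 1 late cell held 36.2% of its UMIs. Without the cell with the most UMIs of each library it was at 1475 CPM, against 1490 CPM. In this set Col12a1 was at 183 CPM in late and 81.0 CPM in early HER2-positive cells (ratio 2.26, 1.56 to 3.24), and Col6a1 at 1124 CPM, against 745 CPM (ratio 1.51, 1.32 to 1.72). Without the top cell of each library Col6a1 was at 969 CPM, against 711 CPM, within 1.5-fold. Of the 38, 88 and 488 cells of the Npnt and Ces1d subset, 15, 63 and 435 were in this set. In them Col13a1 was at 511, 583 and 597 CPM, closer across libraries than in all cells of that subset. The limited set was chosen after the values were seen.

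Epithelial and endothelial classes had mostly lower collagen values in the late HER2-positive library. In alveolar type 1 cells, 5 of 30 collagen genes measured were higher and 22 lower, beside 5.38% and 34.1% of all genes, with medians of -1.39 and -0.38. Col1a1 was at 6.91 CPM in late and 81.3 CPM in early HER2-positive cells (ratio 0.085), Col3a1 at 15.6 CPM, against 239 CPM (ratio 0.065), and Col4a1 at 293 CPM, against 553 CPM (ratio 0.53). The 3 club cell genes summed to 203594 CPM in late, 12701 CPM in early HER2-positive and 11 CPM in HER2-negative alveolar type 1 cells, and smooth muscle check genes to 212, 2903 and 54 CPM. Without cells in which club genes were at least 1% of UMIs and without the cartilage-marked cell (86 late and 231 early HER2-positive cells), Col4a1 was at 469 CPM, against 568 CPM, Col4a4 at 723 CPM, against 654 CPM, and Col4a3 at 571 CPM, against 386 CPM. Col3a1 was at 25.4 CPM, against 251 CPM. So Col4a1 was closer in this set, Col4a3 was farther apart and higher in late cells, and Col3a1 was still lower. Over the set, 0 of 26 collagen genes measured were higher in late cells, beside 10.8% of all genes, and 18 were lower, beside 18.4%. Of the 5 higher genes of the whole class, Col2a1, Col9a2, Col11a1 and Col11a2 are the cartilage collagens described above. In the whole class, 20 of 108 late and 100 of 238 early HER2-positive cells also matched another class. Smooth muscle was matched by 4 late and 44 early cells, pericyte by 5 and 37, fibroblast by 4 and 13, and endothelial by 11 and 55. Such matches were not a ground for leaving a cell out of the limited set. Whether other cells' RNA in these barcodes sets the Col3a1 level was not tested.

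In alveolar type 2 cells, 4 of 33 collagen genes were higher and 17 lower, beside 3.66% and 15.3% of all genes, with medians of -0.60 and -0.10. Col3a1 was at 5.36 CPM in late and 38.3 CPM in early HER2-positive cells, and Col1a2 at 5.30 CPM, against 25.2 CPM. None of the genes called in this class reached 50 CPM in either library. Smooth muscle check genes summed to 50.2 CPM in late and 462 CPM in early HER2-positive alveolar type 2 cells, and fibroblast check genes to 161 and 310 CPM. Of these cells, 13 late and 140 early also matched smooth muscle. In endothelial cells 0 of 27 were higher and 13 lower, beside 6.78% and 10.9% of all genes, with medians of -0.58 and -0.06. Col3a1 was at 20.8 CPM, against 45.7 CPM (ratio 0.46, 0.34 to 0.60), and again no called gene reached 50 CPM. Smooth muscle check genes summed to 189 CPM in late and 455 CPM in early HER2-positive endothelial cells. Pericyte check genes summed to 131 and 212 CPM there, and fibroblast check genes to 279 and 534 CPM. The part of other cells' RNA in the lower collagen values of alveolar type 2 and endothelial cells was not tested.

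The early HER2-positive and HER2-negative libraries were then compared; both sorts came from mice of 14 to 18 weeks, and sort, animal and library cannot be told apart. In fibroblasts, 19 of 35 collagen genes measured were higher in the HER2-positive library, beside 17.1% of all genes, and 2 were lower, beside 14.6%. The median log2 ratio was 0.60 for collagens and 0.02 for all genes. Of 10 fibril-forming genes measured 7 were higher, of 6 fibril-associated genes 5, of 6 type IV genes 4 and of 5 type VI genes 0. Of these higher genes Col2a1, Col9a1, Col9a2, Col9a3, Col11a1 and Col11a2 lay mostly in the cartilage-marked cells, which the HER2-negative library lacked.

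The main fibril genes were higher in early HER2-positive fibroblasts. Col3a1 was at 2647 CPM, against 1518 CPM in HER2-negative fibroblasts (ratio 1.74, 1.67 to 1.82), Col1a2 at 1786 CPM, against 1176 CPM (ratio 1.52, 1.44 to 1.60), and Col1a1 at 1316 CPM, against 877 CPM (ratio 1.5, 1.41 to 1.60). Col15a1 was at 205 CPM, against 85 CPM (ratio 2.42, 2.03 to 2.88), Col14a1 at 336 CPM, against 187 CPM (ratio 1.79, 1.58 to 2.04), and Col12a1 at 75.1 CPM, against 31.4 CPM (ratio 2.39, 1.79 to 3.20). Col4a5 was at 107 CPM, against 66.0 CPM (ratio 1.62), and Col4a6 at 53.4 CPM, against 25.5 CPM (ratio 2.10). The 2 lower genes were Col13a1, at 193 CPM, against 463 CPM (ratio 0.42, 0.36 to 0.48), and Col18a1, at 66.0 CPM, against 108 CPM (ratio 0.61, 0.47 to 0.78). In the Vim-positive, Epcam-negative set the ratios were 2.0 for Col3a1, 1.72 for Col1a1, 2.77 for Col15a1, 2.44 for Col12a1, 0.47 for Col13a1 and 0.68 for Col18a1, so directions were the same and Col18a1 alone of these was within 1.5-fold. Of 30 collagen genes measured in this set 15 were higher, beside 15.8% of all genes, and 3 were lower, beside 15.3%.

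The fibroblast subsets were unequally represented. The Npnt and Ces1d subset made up 51.4%, 39.6% and 74.2% of fibroblasts in late HER2-positive, early HER2-positive and HER2-negative libraries, and the Hhip and Aspn subset 12.2%, 34.2% and 12.3%. These are shares of the whole class. Most late cells of the Npnt and Ces1d subset lay outside the Vim-positive, Epcam-negative set, and most early HER2-positive and HER2-negative ones inside it. Within the Npnt and Ces1d subset, Col3a1 was at 1145 CPM in early HER2-positive and 1086 CPM in HER2-negative cells, and Col13a1 at 427 CPM, against 610 CPM. Within the Hhip and Aspn subset, Col3a1 was at 4190 CPM, against 3022 CPM, and Col15a1 at 314 CPM, against 233 CPM. Within the Pi16 and Serpinf1 subset, Col3a1 was at 3202 CPM, against 2452 CPM, and Col15a1 at 377 CPM, against 388 CPM. Each difference listed here was smaller than the one over all fibroblasts, where Col3a1, Col15a1 and Col13a1 had ratios of 1.74, 2.42 and 0.42. The low Col15a1 level of the Npnt and Ces1d subset, given above, was not closer between these libraries than over all fibroblasts. Col13a1 of the Pi16 and Serpinf1 subset, also given above, was higher in early HER2-positive than in HER2-negative cells.

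Mural classes of the early libraries were compared in the same way. In pericytes, 3 of 20 collagen genes measured were higher in the HER2-positive library and 0 lower, beside 16.7% and 9.18% of all genes, with medians of 0.05 and 0.04. Col3a1 was at 444 CPM in early HER2-positive and 229 CPM in HER2-negative pericytes (ratio 1.94, 1.59 to 2.38). In smooth muscle cells, 5 of 25 were higher and 9 lower, beside 21.5% and 16.0% of all genes, with medians of -0.34 and 0.03. Col18a1 was at 338 CPM, against 170 CPM (ratio 1.98, 1.48 to 2.72). Col3a1 was at 891 CPM, against 1475 CPM (ratio 0.60, 0.54 to 0.67), and Col6a1 at 190 CPM, against 319 CPM (ratio 0.60). Col14a1 at 162 CPM, against 257 CPM (ratio 0.63), Col5a1 at 72.3 CPM, against 112 CPM (ratio 0.64), and Col16a1 at 50.9 CPM, against 87.0 CPM (ratio 0.58), were also lower. Col3a1 was thus higher in pericytes and lower in smooth muscle cells of the HER2-positive library, with 60 smooth muscle cells on the HER2-negative side. Fibroblast check genes summed to 2574 and 4472 CPM in smooth muscle cells of the early HER2-positive and HER2-negative libraries, and their part in these values was not tested.

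In endothelial cells, 16 of 31 collagen genes measured were higher in the early HER2-positive library and 1 was lower, beside 13.9% and 6.67% of all genes, with medians of 0.82 and 0.03. The genes called here were all below 50 CPM. Col8a1 was at 17.5 CPM in early HER2-positive and 1.55 CPM in HER2-negative endothelial cells, Col6a3 at 23.6 CPM, against 10.0 CPM, and Col18a1 at 14.9 CPM, against 6.96 CPM. Col4a1 was at 686 CPM, against 824 CPM, within 1.5-fold. Smooth muscle check genes summed to 455 CPM in early HER2-positive and 24 CPM in HER2-negative endothelial cells, and pericyte check genes to 212 and 21 CPM. The part of such RNA in the called genes was not tested.

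**Figure D5:**
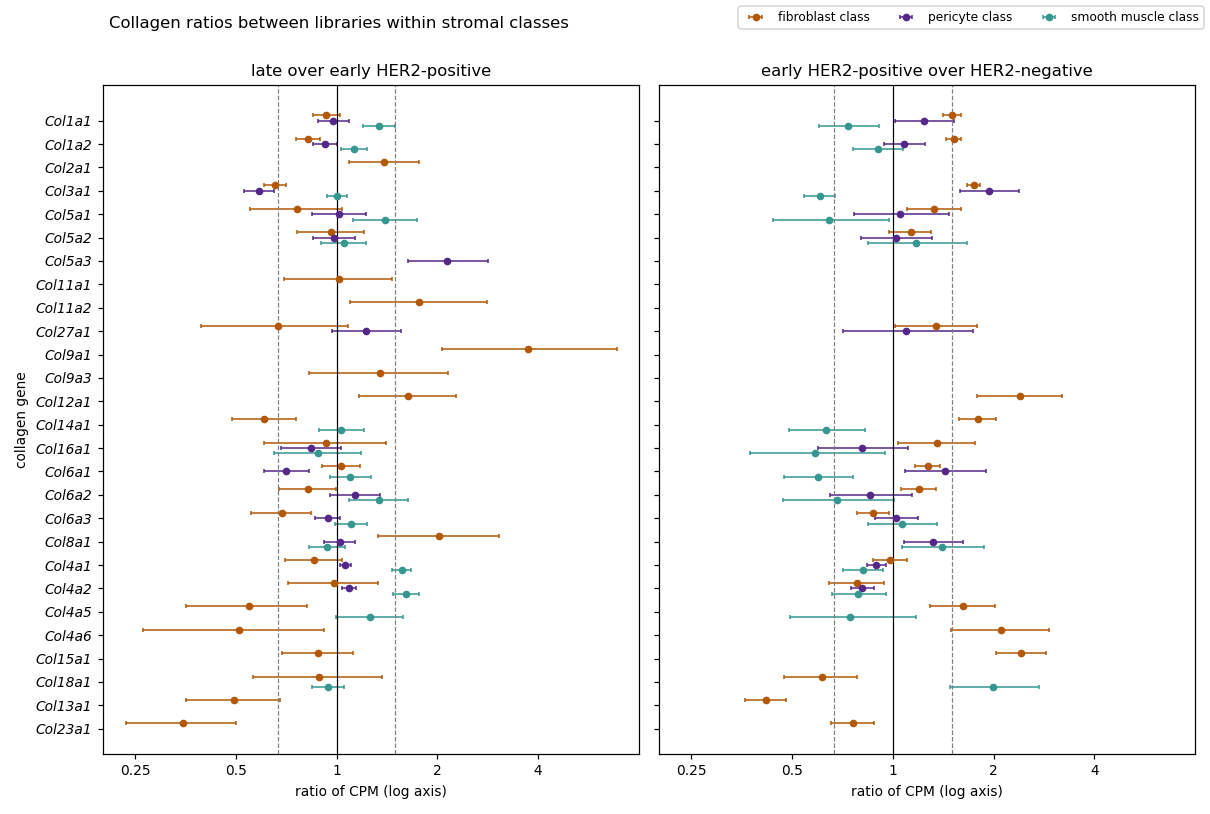
Ratios of CPM between libraries for collagen genes with at least 50 CPM in fibroblasts, pericytes and smooth muscle cells (log axis, 95% conditional intervals, dashed lines at 1.5-fold), late over early HER2-positive in one panel and early HER2-positive over HER2-negative in the other. Col13a1 in fibroblasts is left of 1 in both panels (0.49 and 0.42), and Col3a1 in pericytes is at 0.59 and 1.94.

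Collagen chains are modified, trimmed, crosslinked and broken down by other proteins, and 57 such genes in 6 lists were followed, all of them in the files. The lists were drawn up with earlier results of these data known. In fibroblasts, 3 of 47 measured were at least 1.5-fold higher and 18 lower in the late than in the early HER2-positive library, beside the 14.4% and 21.5% of all genes. In the Vim-positive, Epcam-negative set 6 of 44 were higher and 8 lower, beside 14.4% and 20.2% of all genes. Lox, which starts crosslinks, was at 83.7 CPM in late and 182 CPM in early HER2-positive fibroblasts (ratio 0.46, 0.32 to 0.64). Aspn, a small proteoglycan that binds fibrils, was at 119 CPM, against 439 CPM (ratio 0.27). Aspn is also a marker of the Hhip and Aspn subset, which made up 12.2% of late and 34.2% of early HER2-positive fibroblasts. In the Vim-positive, Epcam-negative set Lox was at 128 CPM, against 206 CPM, and Aspn at 179 CPM, against 521 CPM, and both stayed past 1.5-fold. There Mmp14, a collagen-cutting protease of the cell membrane, was at 293 CPM, against 179 CPM (ratio 1.63), and Plod2, a lysyl hydroxylase, at 114 CPM, against 58.4 CPM (ratio 1.95). In the whole fibroblast class 0 of 5 collagen breakdown genes measured, Mmp14 among them, were called higher in the late library. P4ha1, a subunit of the prolyl hydroxylase that stabilises the helix, was higher in the late HER2-positive library in 3 classes. It was at 196 CPM, against 106 CPM, in pericytes (ratio 1.84, 1.57 to 2.17), 110 CPM, against 60.5 CPM, in smooth muscle cells (ratio 1.82) and 61.5 CPM, against 39.5 CPM, in endothelial cells (ratio 1.56).

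Between the early libraries, 16 of 49 such genes measured in fibroblasts were higher in the HER2-positive library and 6 lower, beside the 17.1% and 14.6% of all genes. In the Vim-positive, Epcam-negative set these counts were 15 and 5 of 48, beside 15.8% and 15.3%. Lum, a proteoglycan that spaces fibrils, was at 862 CPM in early HER2-positive and 274 CPM in HER2-negative fibroblasts (ratio 3.14, 2.87 to 3.44). Aspn was at 439 CPM, against 160 CPM (ratio 2.75), Fmod, a related proteoglycan, at 81.8 CPM, against 29.9 CPM (ratio 2.74), and Ctsk, a collagen-degrading protease, at 98.5 CPM, against 24.3 CPM (ratio 4.06, 3.04 to 5.45). The Hhip and Aspn subset, which Aspn marks, made up 34.2% of early HER2-positive and 12.3% of HER2-negative fibroblasts. The lower genes included Lox, at 182 CPM, against 355 CPM (ratio 0.51), Pcolce2, an enhancer of propeptide removal, at 1216 CPM, against 2223 CPM (ratio 0.55), and Prelp, a proteoglycan, at 631 CPM, against 1260 CPM (ratio 0.50). Proteoglycan genes thus moved in both directions. Lox was lower where Col1a1 and Col3a1 were higher, but it was the exception among crosslinking genes. Of 5 crosslinking genes measured in fibroblasts 3 were higher and 1, Lox, was lower. In the Vim-positive, Epcam-negative set 2 of 4 were higher and 1 was lower.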

How the data were processed

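Per the labels, cells were sorted from digested lungs and libraries sequenced on an Illumina NextSeq 550. The authors deposited unnormalised UMI counts per gene and barcode, with 27998 genes and 6794880 barcodes listed per library. The file headers name software version 3.1.0 and the submitters' processing notes name build mm10. Which aligner and annotation were used is not stated in the labels or headers.

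Counts were summed over the cells of a class and divided by the class total (CPM). CPM have exact Poisson intervals, ratios have exact conditional ones, and shares of cells have Clopper-Pearson ones. A ratio between classes or libraries needed 10 counts and 50 cells in both classes (40 in the Vim-positive, Epcam-negative fibroblast set). A UMI ratio of 2 chains within a class needed 50 counts over both genes and 20 cells. A count of 0 was set to 3 counts for a bound. Doublets were not removed; cells matching several classes were left out in an alternative. Named genes are those with 20 CPM in a class or, in a comparison, past 1.5-fold with 50 CPM and an interval without 1. Genes of fibroblast subsets, cell pairs and unmatched cells, Col25a1 and called genes below 50 CPM were named after their values were seen. With 1 library per group no replicate was averaged. The ratio and interval code was tested on simulated data. Some marker genes and the results that need them are not reported here. Members and lists were chosen with earlier results of these data known. Python 3.11.15, numpy 2.4.6, scipy 1.17.1, pandas 2.3.3 and matplotlib 3.10.9 were used.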

Additional observations from a re-analysis of the deposited data

Results flagged for a closer look

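Cells that matched no class (271 late HER2-positive and 402 early HER2-positive) held collagens that no class of the comparisons carried at that level. Col20a1, a fibril-associated collagen, was at 45.8 CPM in late and 74.3 CPM in early HER2-positive unmatched cells, beside 2.54 and 3.53 CPM in background barcodes of the same libraries. Col28a1 was at 6.61 CPM in late and 17.9 CPM in early HER2-positive unmatched cells, beside 0.362 and 1.06 CPM in background barcodes. Col8a2, a short-chain collagen, was at 44.9 CPM in late and 19.9 CPM in early HER2-positive unmatched cells, and Col6a5 at 87.4 CPM in late and 71.7 CPM in early. Cells with ciliated cell markers (Foxj1, Ccdc153 and Tmem212; 115 late and 77 early) held 78.3% and 56.4% of Col8a2 UMIs and 82.2% and 49.1% of Col6a5 UMIs. This set was marked after the values were seen.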

How the results depend on the processing

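Results were recomputed under 13 alternatives, where the alternative left enough cells and counts (37 to 48 of 48 ratios of named genes), of which the limited fibroblast and alveolar type 1 sets were chosen after seeing the data. The class with the most collagen was the fibroblast in 3 of 3 libraries under each setting run, and the 22 genes with the same highest class numbered 21 to 25. Over all classes, 25 gene and class pairs were higher and 65 lower in the late than in the early HER2-positive library, and 43 were higher and 12 lower in early HER2-positive than in HER2-negative cells. With at least 30 counts, 16 were higher in late cells. With at least 1 count these 4 numbers were 47, 101, 69 and 19. Among cells matching 1 class alone, 36 were lower in late cells and 2 lower in early HER2-positive cells, where the smooth muscle comparison drops out. Of the 18 genes lower in mammary than in alveolar type 2 cells, 11 were lower in cells of 1 class alone and 7 with class thresholds doubled. Cells of 1 class alone leave out 3437 of the 3996 late HER2-positive alveolar type 2 cells. Of 602 recomputed ratios of named genes, 550 moved by less than their counting interval, 51 moved further and 1 reversed: Col8a1 in fibroblasts, late over early HER2-positive, was 0.984 without the cell with the most counts. The 550 include ratios that could not move. The settings of at least 30 counts and at least 1 count, with 48 ratios each, do not enter a ratio. The limited fibroblast and alveolar type 1 sets leave ratios of other classes as they were. Leaving out a replicate was not possible with 1 library per group. No paired analysis was possible because each group holds 1 library. The smallest classes (46 to 74 cells) and the shallower HER2-negative library limit what low genes can show.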
